A study of Mus musculus with 12 samples.

Results

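The cytosolic RNA sensors and their partners described here are 7 genes. They are Ddx58, Ifih1, Dhx58, Mavs, Eif2ak2, Adar and Ddx60, and they were chosen by name, with earlier results of these data known. All 7 were found among the 17571 genes of the expression table, and 6 of them were among the 10412 genes that passed a filter on low values, Ddx60 being the exception. RNA was sequenced from L929 cells, a mouse fibroblast line of the C3H/An strain, in 12 libraries. The 4 groups of 3 libraries shared the cell line. Mock cells received DMSO, the pEGFP-N1 group was transfected after DMSO with pEGFP-N1, a plasmid that carries the gene for enhanced green fluorescent protein, the BX795 group was treated with 0.5 µM BX795, an inhibitor of the kinase TBK1, and the last group received both. According to the labels, the drug or DMSO was given 1 h before a transfection of 6 h. The labels' treatment protocol says that all cells were transfected. Whether mock and BX795 cells also received transfection reagent is not stated in the sources used here, so the plasmid and the reagent cannot be told apart. Nothing says that replicates came from separate cultures, and the p-values then measure the spread between these libraries, which may be technical.

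Cells detect viral and other foreign RNA in the cytosol with helicases that recognise features that the cell's own RNA mostly lacks. RIG-I, the product of Ddx58, binds short double-stranded RNA ends that carry a triphosphate, and MDA5, the product of Ifih1, binds along longer duplexes. Both then act through MAVS, an adaptor on the outer mitochondrial membrane, which leads to the kinase TBK1 and to type I interferon. LGP2, the product of Dhx58, shares the helicase fold but has no signalling domain and modulates the other two. Interferon acts back on many of these genes through factors that bind the interferon-stimulated response element (ISRE) in their promoters. PKR, the product of Eif2ak2, binds double-stranded RNA and halts translation by phosphorylating eIF2alpha, ADAR1, the product of Adar, edits adenosine to inosine in double-stranded RNA and so keeps self RNA from being sensed, and DDX60 is an interferon-induced helicase related to the yeast Ski2 family.

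The promoter sequences are shown first because several of these genes are known interferon targets and their RNA differed in how much it varied between libraries. Promoter windows, from 250 before to 50 after the start of transcription, came from RefSeq (GRCm38.p6) and covered 6 of the 7 members in 8 promoters, Adar having 3. Dhx58 had no entry. The letters GAAANNGAAA, a core of the ISRE, were searched on both strands. They occurred in 3.44% of all 32851 promoters in the table, and in at least 1 promoter of 3.99% of the 27025 genes. Each match is written below in the direction of its gene with the matching letters in capitals. Positions count from 1 at the first transcribed base, and those before it are negative.

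Ddx58, position 3, letters on the opposite strand, chr4:40239804-40239833, minus strand: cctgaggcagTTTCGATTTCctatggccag
Ifih1, position 33, chr2:62646206-62646233, minus strand: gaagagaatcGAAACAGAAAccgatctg
Eif2ak2, position 19, chr17:78882535-78882564, minus strand: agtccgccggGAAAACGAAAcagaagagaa
Ddx60, position -53, chr8:61928024-61928053, plus strand: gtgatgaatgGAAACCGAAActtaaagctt
Ddx60, position -19, chr8:61928058-61928087, plus strand: gagcagaagaGAAACCGAAActatccttca

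The ISRE letters were thus present in 4 of the 6 members with a promoter, with 2 matches in Ddx60 that share the same 10 letters. No match was found in the window of Mavs or in the 3 windows of Adar. Only these exact letters were searched, so a window without a match may still hold a similar sequence. The letters TTCNNNGAA of the gamma-activated site (GAS), searched in the same way, occurred in 8.30% of promoters. Among the members they were found once in Eif2ak2 at position -178 and once in 1 of the 3 Adar promoters at position 23, the latter starting where GENCODE M21 has no transcript start. A match is a description of these letters in this window, not evidence that a factor binds there.

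**Figure D1:**
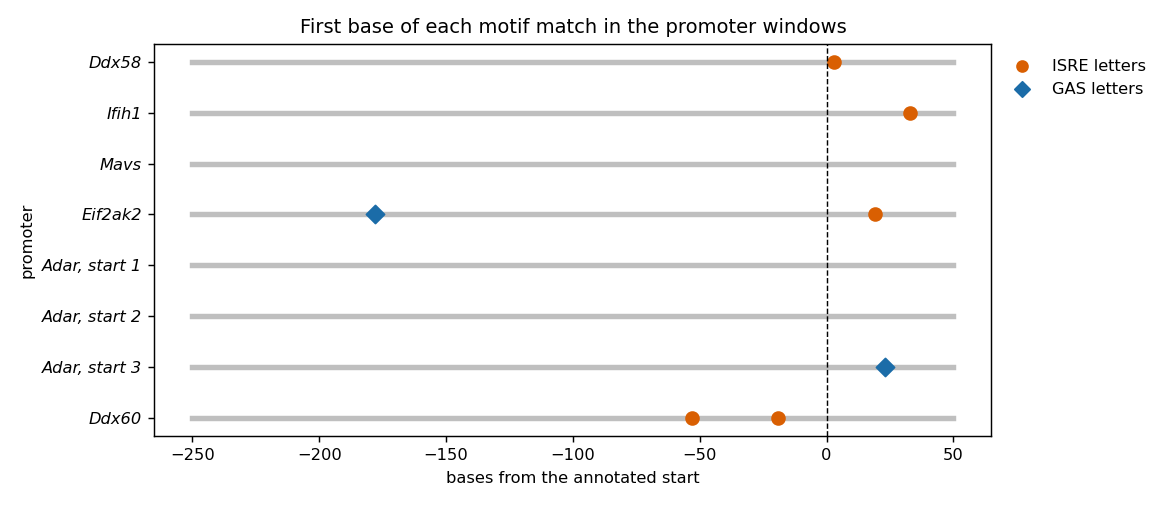
First base of each ISRE (circles) and GAS (diamonds) match in the 8 member promoters, in bases from the annotated start, which the dashed line marks. Grey bars are the windows searched. The circles lie within 53 bases of the start in Ddx58, Ifih1, Eif2ak2 and Ddx60, and none lies on the Mavs or Adar bars.

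Levels are FPKM, fragments scaled to the length of the transcript and to the size of the library, which allows genes of different length to be compared. FPKM sums ran from 467348 to 513761 per library, and 0 of the 66 pairs of libraries were identical. Read totals could not be recovered, so the depth is unknown and no counting error is given. Of 10 fibroblast markers, 9 were at 1 FPKM or more in every library, and 0 of 5 epithelial and 0 of 3 endothelial markers reached 1 FPKM in any library. Of 6 haematopoietic markers, 5 were under 1 FPKM in every library and Cd68 was between 111 and 138 FPKM. Cd68 was highest, at 134.74, 131.8 and 137.67 FPKM, in the 3 libraries in which Isg15 was high, and its part in the results was not tested. In 2 cases a library stood apart from the rest of its group. The library labelled pEGFP-N1 replicate 2 lay near the mock level of Isg15, an interferon-stimulated gene, at 1.38 FPKM, where replicates 1 and 3 had 151.74 and 129.16. The library labelled BX795 plus pEGFP-N1 replicate 1 had 143.85 FPKM of Isg15, where replicates 2 and 3 had 3.39 and 5.15. Fold changes of the members that rest on these libraries are given with and without each of them. In bulk RNA, more cells that express a gene and more RNA per cell cannot be told apart.

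In mock cells the 7 members spanned a wide range of levels, and the 3 most alike in role were among the low ones. Mavs was highest at 20.6 ± 0.899 FPKM (SD, n = 3), above 77.2% of the genes in the table. Adar followed at 15.4 ± 0.116 FPKM and Eif2ak2 at 8.65 ± 0.121 FPKM. The 3 helicases of the RIG-I family were lower. Ddx58 stood at 1.57 ± 0.0681 FPKM and Dhx58 at 1.57 ± 0.0656 FPKM, each above 44.5% of genes and not separated from each other by their spread. Ifih1 was lower still at 0.193 ± 0.0416 FPKM, above 34.1% of genes, and Ddx60 was listed at 0 in all 3 mock libraries. The other neighbours in this order did not overlap in any mock library.

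Ddx58 lies on chromosome 4 from 40203773 to 40239828 (GRCm38, minus strand) with up to 18 exons. Its FPKM was 1.52, 1.65 and 1.55 in mock replicates 1 to 3. With pEGFP-N1 it was 13.73, 2.35 and 12.88, so replicates 1 and 3 were far above mock and replicate 2 was closer to mock than to them. With BX795 alone the values were 2.34, 2.59 and 2.54, and with both they were 13.62, 2.43 and 2.91. Replicate 1 of the group that received both therefore stood with the 2 high pEGFP-N1 libraries, while its other 2 libraries lay in the range of BX795 alone or slightly above it. All 9 libraries that received the plasmid, the drug or both were above all 3 mock libraries, the lowest of the 9 being 2.34.

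Ifih1, on chromosome 2 from 62595798 to 62646255 (minus strand, up to 16 exons), had the widest range of the members. The mock replicates had 0.18, 0.16 and 0.24 FPKM, and those of pEGFP-N1 had 13.01, 0.25 and 12.51. Replicates 1 to 3 of BX795 gave 0.31, 0.36 and 0.27, and those given both agents 11.44, 0.23 and 0.32. The same 3 libraries that were high in Ddx58 were high in Ifih1, and the remaining 9 all lay between 0.16 and 0.36. Ifih1 was over 1 FPKM only in the 3 high libraries, so it entered the tests only through the libraries in which it was high, and it is left out of the counts of members given with the tests. The highest value was 81.3 times the lowest, against 9.03 times for Ddx58 and 15.2 times for Dhx58. Unlike Ddx58, Ifih1 in BX795 plus pEGFP-N1 replicate 2 (0.23) fell within the mock range.

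Dhx58 lies on chromosome 11 from 100694884 to 100704271 (minus strand, up to 13 exons) and overlaps an antisense gene, Dhx58os. Whether the libraries kept strand is not given in the sources used here, so reads of the overlap cannot be assigned. Its mock levels were 1.64, 1.56 and 1.51 FPKM, and the pEGFP-N1 libraries had 22.98, 2.08 and 20.87. Levels under BX795 were 2.12, 2.23 and 1.89, and those under both agents were 22.47, 2.24 and 2.36. The pattern was that of Ddx58, with 3 high libraries and with all 9 treated or transfected libraries above all 3 mock libraries, the lowest being 1.89. Genes with all 9 above all 3 were 1.93% of those tested, and of the 7 members they were Ddx58 and Dhx58.

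Mavs, the adaptor through which RIG-I and MDA5 signal, was among the most even genes. It lies on chromosome 2 from 131234063 to 131248025 (plus strand, up to 8 exons). Mock replicates 1 to 3 had 20.10, 19.99 and 21.60 FPKM and the pEGFP-N1 replicates 21.35, 19.37 and 21.25. BX795 libraries stood at 18.64, 19.29 and 20.05, and the libraries given both agents at 20.67, 18.44 and 21.68. No group was separate from mock, and the highest library was 1.18 times the lowest. On the log2(FPKM + 1) scale its SD over the 12 libraries was larger than that of 12.4% of the tested genes, where those of Ddx58, Ifih1 and Dhx58 were larger than 99.7%, 99.8% and 99.8%.

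Eif2ak2, whose product PKR halts translation, also varied little. It lies on chromosome 17 from 78852564 to 78882573 (minus strand, up to 16 exons), overlaps an rRNA gene and the lincRNA Gm26637 on the opposite strand, and shares 4.08% of its 31-base words with other genes. Reads of these overlaps cannot be assigned either. Its level was 8.52, 8.67 and 8.76 FPKM across the mock replicates and 9.43, 7.65 and 9.30 across those of pEGFP-N1. It was 8.83, 8.62 and 8.72 under BX795 alone and 9.02, 7.56 and 9.61 under both agents. The lowest values were those of replicate 2 of each plasmid group, and the highest was 1.27 times the lowest. On the log2(FPKM + 1) scale its SD over the 12 libraries was larger than that of 23.2% of the tested genes. Eif2ak2 thus carried ISRE letters near its start, as Ddx58 and Ifih1 did. In the 3 libraries where those were high it was between 9.02 and 9.43 FPKM, slightly above the mock libraries at 8.52 to 8.76.

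Adar, the editing enzyme, took a middle place. It lies on chromosome 3 from 89715022 to 89753446 (plus strand, up to 15 exons), and its annotated region overlaps Chrnb2 on the opposite strand. Mock libraries had 15.50, 15.41 and 15.27 FPKM, and transfected libraries without drug had 20.08, 14.33 and 20.82. The BX795 replicates had 16.52, 15.44 and 15.51, and the replicates with drug and plasmid 20.55, 16.56 and 17.33. The 3 libraries at 20 FPKM or more were the same 3 in which Ddx58, Ifih1 and Dhx58 were high, but the highest was only 1.45 times the lowest, pEGFP-N1 replicate 2. The SD of Adar over all libraries, on the log2(FPKM + 1) scale, was larger than that of 71.2% of the tested genes. The table holds 1 value per gene, so the interferon-inducible and constitutive forms of ADAR1 RNA were not told apart.

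Ddx60, on chromosome 8 from 61928087 to 62038244 (plus strand, up to 39 exons), was barely detected. It was listed at 0 in 8 of the 12 libraries. The values above 0 were 0.61 and 0.55 FPKM in pEGFP-N1 replicates 1 and 3, 0.43 in BX795 plus pEGFP-N1 replicate 1 and 0.01 in BX795 replicate 1. The 3 libraries above 0.1 FPKM were again the high ones of the RIG-I family. No fold is given against groups listed at 0.

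**Figure D2:**
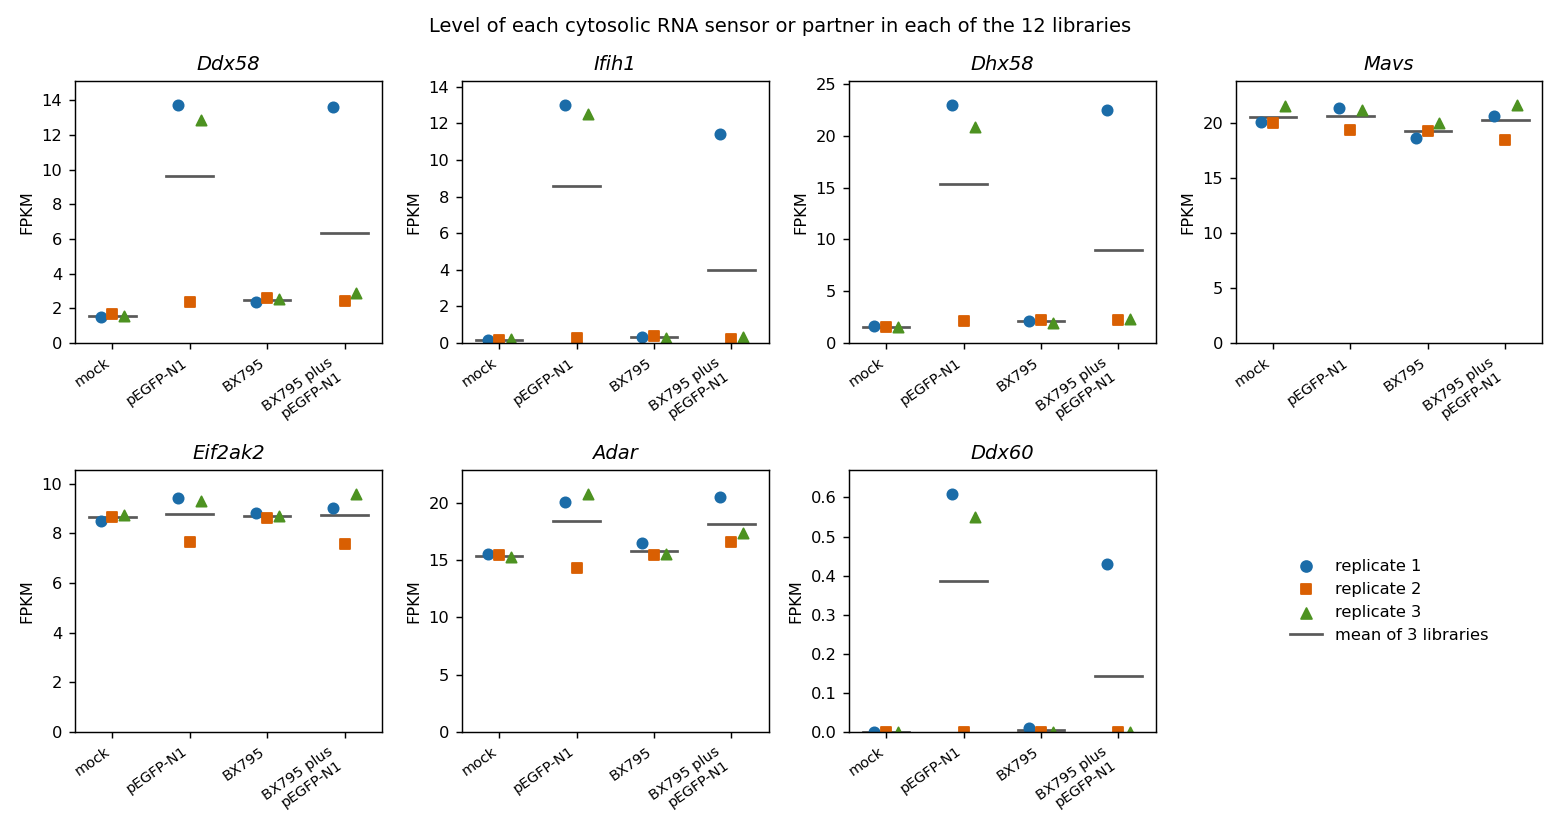
FPKM of each member in each of the 12 libraries by group. Point shape and colour give the replicate number and grey lines the mean of 3 libraries, and each panel has its own axis from 0. In Ddx58, Ifih1, Dhx58 and Ddx60, replicates 1 and 3 of pEGFP-N1 and replicate 1 of BX795 plus pEGFP-N1 stand above the rest, while Mavs and Eif2ak2 points stay within 1.18 and 1.27 times of each other.

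The first comparison asked how plasmid transfection without drug changed these genes. The RIG-I family helicases were higher in every pEGFP-N1 library than in every mock library, by unequal amounts, and no member passed the test. The mean of pEGFP-N1 was 6.14 times that of mock for Ddx58, 9.75 times for Dhx58 and 44.4 times for Ifih1, where 3 against 3 libraries gave an exact two-sided permutation p of 0.1, the smallest possible. The fits below are limma fits on log2(FPKM + 1) over all tested genes, with Benjamini-Hochberg adjustment and an adjusted p under 0.05 as the call. The log2 fold change was 1.78 for Ddx58 (SE 0.57, adjusted p = 0.712), 2.37 for Ifih1 (SE 0.94, adjusted p = 0.942) and 2.19 for Dhx58 (SE 0.80, adjusted p = 0.897). Since Ifih1 was under 1 FPKM in mock, its fold change depends on the pseudocount and was 4.12 with a pseudocount of 0.01.

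Mavs, Eif2ak2 and Adar overlapped with mock. The log2 fold change was 0.01 for Mavs (95% confidence interval -0.15 to 0.17), 0.02 for Eif2ak2 (-0.19 to 0.22) and 0.23 for Adar (-0.04 to 0.49), which bounds a change of Mavs or Eif2ak2 far below the values of the helicases. Of the 5 tested members other than Ifih1, limma called 0, against 0.0672% of all tested genes, and 2, Ddx58 and Dhx58, had an unadjusted p under 0.05, against 4.69%. The same 2 of the 5 had all pEGFP-N1 values above all mock values, as did 5.52% of all tested genes. The separation of Ifih1 rested on 0.25 FPKM in pEGFP-N1 replicate 2 against 0.24 in mock replicate 3. Leaving out pEGFP-N1 replicate 2 raised the log2 fold change to 2.47 for Ddx58 (adjusted p = 0.0614), 3.53 for Ifih1 (adjusted p = 0.0837), 3.16 for Dhx58 (adjusted p = 0.0821) and 0.39 for Adar (adjusted p = 0.0847), still without a call. Leaving out pEGFP-N1 replicate 1 or 3 lowered it to 1.41 and 1.45 for Ddx58, 1.78 and 1.81 for Ifih1 and 1.68 and 1.74 for Dhx58.

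**Figure D3:**
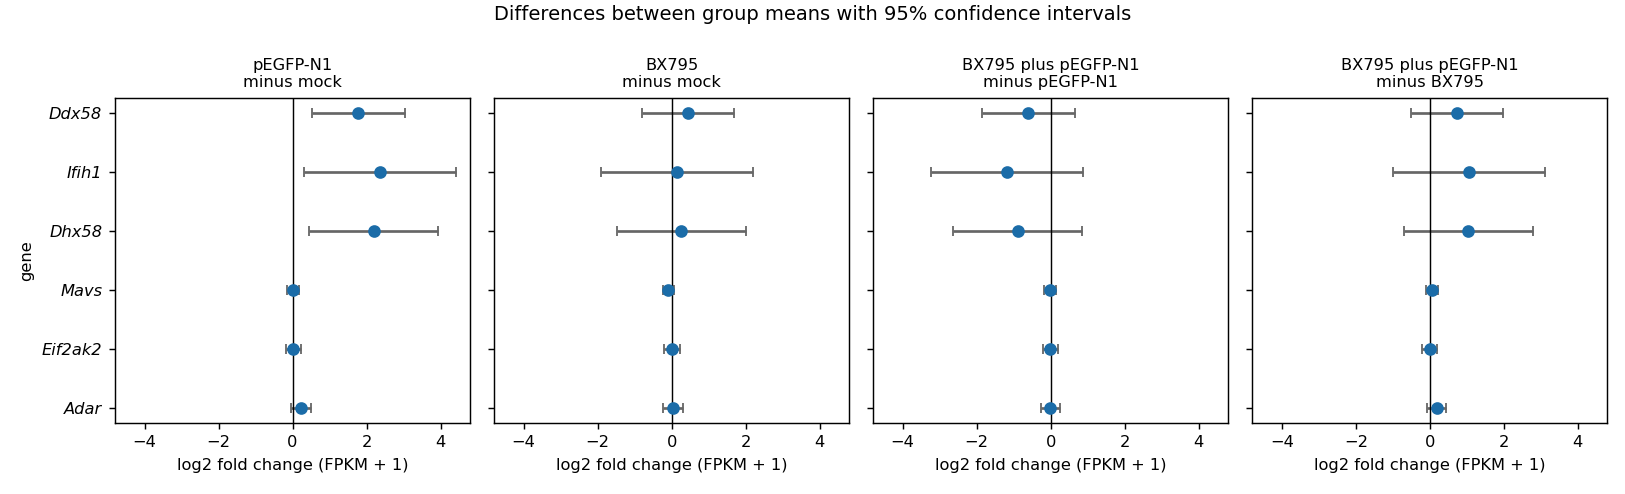
Log2 fold changes of the 6 tested members in 4 comparisons (points) with 95% confidence intervals from limma (bars), on log2(FPKM + 1). The intervals of Ddx58, Ifih1 and Dhx58 are wide and lie above 0 in pEGFP-N1 minus mock, while those of Mavs and Eif2ak2 stay within 0.25 of 0 in every panel.

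BX795 alone was the second comparison, of drug against mock without plasmid. The same 3 helicases were slightly higher in all 3 BX795 libraries than in all 3 mock libraries, by 1.58 times for Ddx58, 1.62 times for Ifih1 and 1.32 times for Dhx58 in the means (exact permutation p = 0.1 for each). Such separation was common in this comparison, where 23.6% of tested genes were higher in all 3 BX795 libraries and 16.2% were lower in all 3. In the fit of all 12 libraries the log2 fold changes were 0.44 for Ddx58 (SE 0.57, limma adjusted p = 0.720), 0.14 for Ifih1 (SE 0.94, adjusted p = 0.954) and 0.26 for Dhx58 (SE 0.80, adjusted p = 0.889). Of the 5 tested members other than Ifih1, 0 were called, against 0.0672% of tested genes, and 0 had an unadjusted p under 0.05, against 13.8%.

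That fit carries the spread of the plasmid groups into a comparison that does not involve them. With only the mock and BX795 libraries in the fit, the SE of Ddx58 was 0.07 in place of 0.57, and 2 members were called, Ddx58 (adjusted p = 0.00464) and Dhx58 (adjusted p = 0.0457), while Ifih1 was not (adjusted p = 0.321). In that fit 20.6% of all tested genes were called. Mavs, Eif2ak2 and Adar overlapped between the groups, with log2 fold changes of -0.08, 0.01 and 0.04. Cxcl10, an interferon-induced chemokine gene, was 7.86, 0.90 and 1.85 FPKM in BX795 replicates 1 to 3 against 0.31, 0.47 and 0.42 in mock, so it too was above mock in every library. Isg15 and Ifit1 were not, at 3.76, 1.90 and 1.26 FPKM of Isg15 under BX795 against 1.46, 2.22 and 2.61 in mock, and 0.45, 0.04 and 0.11 FPKM of Ifit1 against 0.18, 0.20 and 0.20 (exact permutation p = 0.9 and 1). Whether these values are related to those of the helicases was not tested.

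The third comparison, of both agents with pEGFP-N1 alone, asked whether the drug changed these genes in transfected cells. The group means were lower with the drug, at 0.655 times for Ddx58, 0.465 times for Ifih1 and 0.589 times for Dhx58, but in each gene both groups held high and low libraries and overlapped. Exact permutation p-values were 0.8, 0.3 and 0.7. The log2 fold changes were -0.60 for Ddx58, -1.18 for Ifih1 and -0.89 for Dhx58, each with a limma adjusted p of 0.959. Mavs, Eif2ak2 and Adar also overlapped, with log2 fold changes of -0.03, -0.01 and -0.01 and intervals within 0.28 of 0 for all 3.

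Of the 5 tested members other than Ifih1, limma called 0, as it did 0% of all tested genes, and 0 had an unadjusted p under 0.05, against 1.59%. Genes without overlap were few, 1.39% higher and 1.41% lower with the drug, and no member was among them. The 3 helicase values moved by over 1.5 times with the omission of any 1 of the 6 libraries compared, in either direction. Without BX795 plus pEGFP-N1 replicate 1, the log2 fold changes were -1.27 for Ddx58 (limma adjusted p = 0.252), -2.28 for Ifih1 (adjusted p = 0.237) and -1.83 for Dhx58 (adjusted p = 0.243). Without pEGFP-N1 replicate 2 they were -1.30, -2.34 and -1.85, each with an adjusted p of 0.401. Without any 1 of the other 4 libraries they lay nearer to 0, between -0.32 and -0.22 for Ddx58, between -0.66 and -0.59 for Ifih1 and between -0.44 and -0.37 for Dhx58.

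The fourth comparison, of both agents with BX795 alone, measured the plasmid effect in the presence of the drug. Dhx58 and Adar were higher in all 3 libraries that received both than in all 3 that received BX795 (exact permutation p = 0.1 for each), with means 4.34 times and 1.15 times those of BX795. The margins were small, at 2.24 against 2.23 FPKM for Dhx58 and 16.56 against 16.52 for Adar. The 2 members compare with 4% of all tested genes. Ddx58 and Ifih1 overlapped, since Ddx58 was 2.43 in BX795 plus pEGFP-N1 replicate 2, below 2 of the 3 BX795 libraries. The log2 fold changes were 0.74 for Ddx58, 1.05 for Ifih1, 1.04 for Dhx58 and 0.18 for Adar, with limma adjusted p-values between 0.611 and 0.648, and Mavs had 0.06. limma called 0 of the 5 members other than Ifih1 and 0% of tested genes, and 0 of the 5 had an unadjusted p under 0.05, against 5.56%. Without BX795 plus pEGFP-N1 replicate 1 the values were 0.07 for Ddx58, -0.04 for Ifih1, 0.10 for Dhx58 and 0.09 for Adar. Without replicate 2 of that group they were 1.12 for Ddx58, 1.63 for Ifih1 and 1.53 for Dhx58, and without its replicate 3 they were 1.02, 1.58 and 1.5.

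How the plasmid effect without BX795 differed from that with BX795 (the former minus the latter) was then tested in the same fit. It was 1.04 for Ddx58 (95% confidence interval -0.73 to 2.81, limma adjusted p = 0.842), 1.32 for Ifih1 (-1.58 to 4.23, adjusted p = 0.854) and 1.15 for Dhx58 (-1.32 to 3.61, adjusted p = 0.851). The intervals include both no difference and a difference as large as the plasmid effect itself. For Mavs, Eif2ak2 and Adar it was -0.06, 0.02 and 0.04. limma called 0 of the 5 members other than Ifih1 and 0% of tested genes, and 0 of the 5 had an unadjusted p under 0.05, against 3.91%. Without pEGFP-N1 replicate 2 the differences were 1.74, 2.48 and 2.11 for Ddx58, Ifih1 and Dhx58, and without BX795 plus pEGFP-N1 replicate 1 they were 1.71, 2.42 and 2.09, none with an adjusted p under 0.05. Without any 1 of the other 4 plasmid libraries they were smaller, between 0.66 and 0.76 for Ddx58, between 0.73 and 0.80 for Ifih1 and between 0.63 and 0.70 for Dhx58.

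The members are set here, library by library, beside 3 interferon-stimulated genes, Isg15, Ifit1 and Cxcl10. Differences on the log2(FPKM + 1) scale are understated for genes near 0 in mock, as Ifih1, Ddx60 and Ifit1 were, and so do not rank the genes by fold. On the log2(FPKM + 1) scale, pEGFP-N1 replicates 1 and 3 exceeded the mock mean of Ifit1, whose product binds foreign RNA, by 6.35 and 6.33, and BX795 plus pEGFP-N1 replicate 1 by 6.29. In those 3 libraries Ifih1 exceeded its mock mean by 3.55, 3.50 and 3.38, Dhx58 by 3.22, 3.09 and 3.19, and Ddx58 by 2.52, 2.43 and 2.51. There Ddx60 exceeded its mock mean by 0.52 to 0.69 and Adar by 0.36 to 0.41. Mavs stayed between 0.01 and 0.05 there and Eif2ak2 between 0.05 and 0.11. In BX795 plus pEGFP-N1 replicates 2 and 3, Cxcl10 exceeded its mock mean by 2.26 and 2.42. Its level there was 5.68 and 6.47 FPKM, where BX795 alone reached 7.86. Isg15 there was 3.39 and 5.15 FPKM, against 1.46 to 2.61 in mock. Ifit1 was 0.17 FPKM in 1 of these libraries and 0.57 in the other, against 0.18 to 0.20 in mock. In the same libraries Ddx58 exceeded its own by 0.41 and 0.60, Dhx58 by 0.33 and 0.39, and Ifih1 by 0.04 and 0.15.

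**Figure D4:**
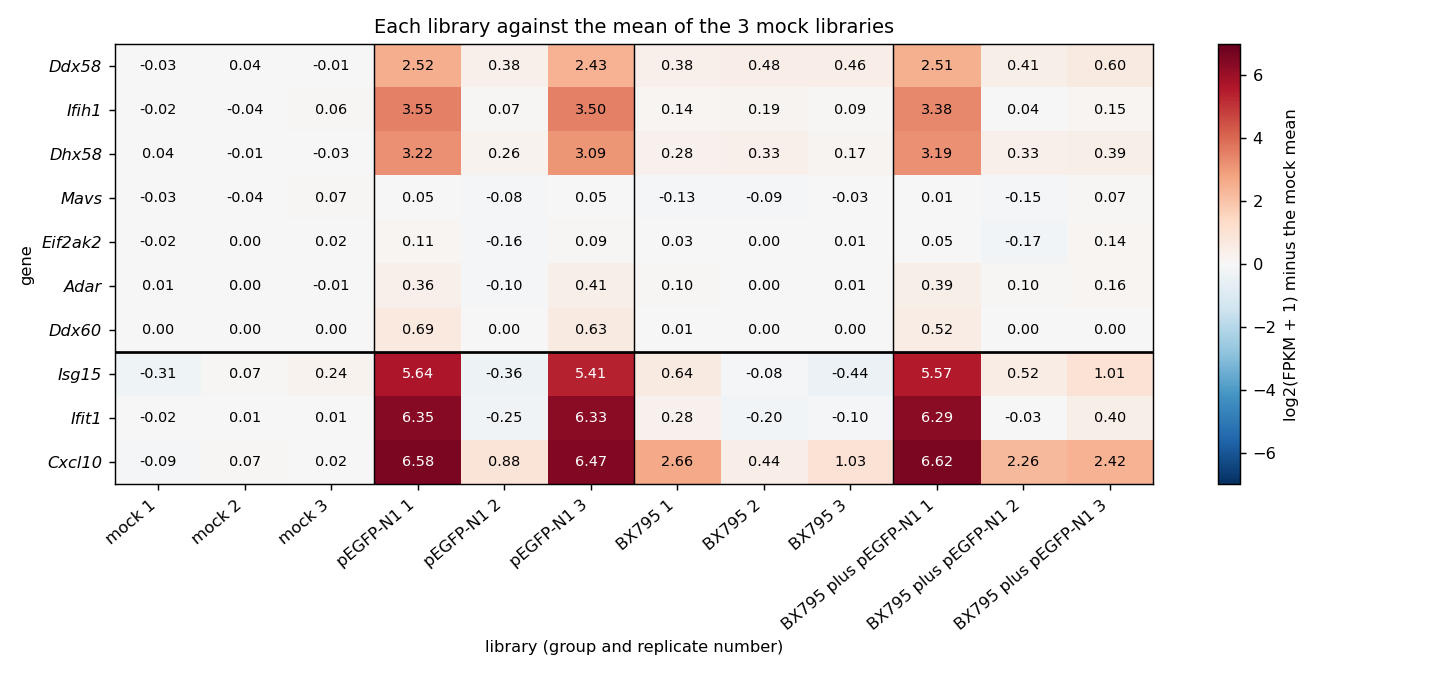
Difference of each library from the mean of the 3 mock libraries on the log2(FPKM + 1) scale, for the 7 members (above the black line) and 3 interferon-stimulated genes (below it). Red is above the mock mean. Ddx58, Ifih1 and Dhx58 reach 2.43 to 3.55 in pEGFP-N1 replicates 1 and 3 and BX795 plus pEGFP-N1 replicate 1, where Mavs reaches at most 0.05.

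For the 3 members whose log2 level ranged by at least 1, the genes with the most similar profile, other members left out, were found by the root mean square difference over the 12 libraries, each gene centred on its mock mean. For Ddx58 they were Gbp3 (0.20) and Irgm1 (0.22), both interferon-inducible GTPases, and Hdc (0.27), the histidine decarboxylase. Gbp3 was 0.04 to 0.09 FPKM in mock and 5.86, 0.20 and 4.75 in pEGFP-N1 replicates 1 to 3. For Ifih1 the nearest non-members were Samd9l (0.20), Ccl4 (0.24) and Ifit3b (0.27), and for Dhx58 they were Samd9l (0.09), Ccl4 (0.20) and Hdc (0.26). Among the members, Ifih1 and Dhx58 differed by 0.22, Ddx58 and Dhx58 by 0.36, and Ddx58 and Ifih1 by 0.56. Gbp3, Hdc, Ccl4 and Ifit3b were at 1 FPKM or more in 3 libraries only, so they entered this search only through the libraries in which they were high, while Irgm1 and Samd9l were over 1 FPKM in all 12. Likeness holds on the log2(FPKM + 1) scale and not for folds, since Gbp3 and Hdc were near 0 in mock where Ddx58 was not. These are descriptions over libraries that share groups, with no test.

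Genes of proteins that work with the members, or are related to them, were examined as 6 lists in pEGFP-N1 against mock, and none passed the test. Of their 81 tested genes, 3 (Irf7, Zbp1 and Adarb2) reached 1 FPKM in at most 4 libraries and are left out of the counts and medians below, a choice made after their values were seen. limma called 0 genes up and 0 down in each of the 6 lists, 4 of the other 78 genes had an unadjusted p under 0.05, against 4.69% of all tested genes, and the median log2 fold change over all tested genes was -0.003. Regulators of RIG-I and MDA5 had a median of 0.01 over 13 tested genes, with 0 above mock and 0 below in all libraries. Trim25, a ubiquitin ligase for RIG-I, had the largest value there, at 17.01, 17.50 and 18.29 FPKM in mock and 30.74, 15.04 and 31.23 with pEGFP-N1 (log2 fold change 0.45, SE 0.24, limma adjusted p = 0.9997). Zc3hav1, the antiviral protein ZAP, followed at 0.32 and Rnf135, another RIG-I ligase, had -0.16. Without pEGFP-N1 replicate 2 these were 0.78 for Trim25 (adjusted p = 0.0837), 0.51 for Zc3hav1 (adjusted p = 0.0512) and -0.30 for Rnf135 (adjusted p = 0.410). Without replicate 1 they were 0.29, 0.24 and -0.06, and without replicate 3 they were 0.28, 0.22 and -0.11.

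The MAVS signalling complex (23 genes without Irf7) had a median of -0.03, with 2 genes above mock and 5 below in all 3 pEGFP-N1 libraries, where 5.52% of tested genes were above and 7.41% below. Irf7, the interferon regulatory factor that amplifies interferon transcription, was 0.75, 0.81 and 0.65 FPKM in mock and 2.23, 1.0 and 2.07 with pEGFP-N1 (log2 fold change 0.64, SE 0.27, limma adjusted p = 0.995), or 0.86 without replicate 2. Its log2 fold change was 0.51 without pEGFP-N1 replicate 1 and 0.55 without replicate 3. Irf7 reached 1 FPKM in 4 libraries only, all of them transfected, and so passed the filter through these. Traf5 and Tbkbp1, an adaptor of TBK1, each had -0.16. Without pEGFP-N1 replicates 1, 2 and 3 in turn, Traf5 had -0.20, -0.20 and -0.08, and Tbkbp1 had -0.13, -0.16 and -0.18. The PKR and eIF2alpha circuit (12 tested) had a median of -0.02. Ppp1r15a, which directs eIF2alpha dephosphorylation, had 0.34, Dnajc3, an inhibitor of PKR, had -0.27 (SE 0.09, adjusted p = 0.882), and Eif2ak4, the eIF2alpha kinase GCN2, had -0.08. Without pEGFP-N1 replicate 2 these were 0.51, -0.18 and -0.05. Without replicate 1 they were 0.26, -0.31 and -0.07, and without replicate 3 they were 0.25, -0.32 and -0.12. Dnajc3 was 20.24, 20.22 and 21.25 FPKM in mock and 17.97, 14.72 and 18.14 with pEGFP-N1, and it was the 1 gene of that list below mock in all 3 libraries.

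Other RNA helicases of the DEAD and DEAH box families (16 tested) had a median of -0.01, with 0 genes above mock and 1 below in all 3 libraries. The largest values were -0.17 for Dhx9, 0.13 for Ddx24 and -0.11 for Ddx6, each far smaller than those of Ddx58 and Dhx58. Without pEGFP-N1 replicate 2 they were -0.08, 0.23 and -0.09. Without replicate 1 they were -0.24, 0.07 and -0.12, and without replicate 3 they were -0.18, 0.09 and -0.13. Double-stranded RNA binding and editing proteins (11 genes without Zbp1 and Adarb2) had a median of 0.003, with 1 gene above mock and 2 below. Zbp1, a sensor of left-handed nucleic acid whose Z-binding domain is shared with ADAR1, was 0.19, 0.08 and 0.15 FPKM in mock and 4.10, 0.23 and 3.54 with pEGFP-N1 (log2 fold change 1.42, SE 0.62, limma adjusted p = 0.995), or 2.08 without replicate 2 (adjusted p = 0.143). Its log2 fold change was 1.05 without replicate 1 and 1.14 without replicate 3. Like Ifih1, Zbp1 was over 1 FPKM in 3 libraries only and passed the filter only through the libraries in which it was high. The next of that list were Strbp, which binds double-stranded RNA, at -0.11 and Dgcr8, a partner of Drosha in microRNA processing, at -0.11, or -0.10 and -0.01 without replicate 2. Without replicate 1 they were -0.11 and -0.15, and without replicate 3 they were -0.13 and -0.17. Endosomal RNA sensors and adaptors had only 3 of 7 genes tested, with Unc93b1, which transports endosomal Toll-like receptors, at 0.35 (SE 0.09, adjusted p = 0.466), Myd88 at 0.18 and Ticam1 at 0.15, or 0.36, 0.28 and 0.23 without pEGFP-N1 replicate 2. Unc93b1 was 4.07, 4.53 and 4.77 FPKM in mock and 6.26, 5.85 and 5.74 with pEGFP-N1, so that replicate 2 was not low there. Its log2 fold change was 0.32 without replicate 1 and 0.37 without replicate 3, and that of Myd88 was 0.13 in each case.

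**Figure D5:**
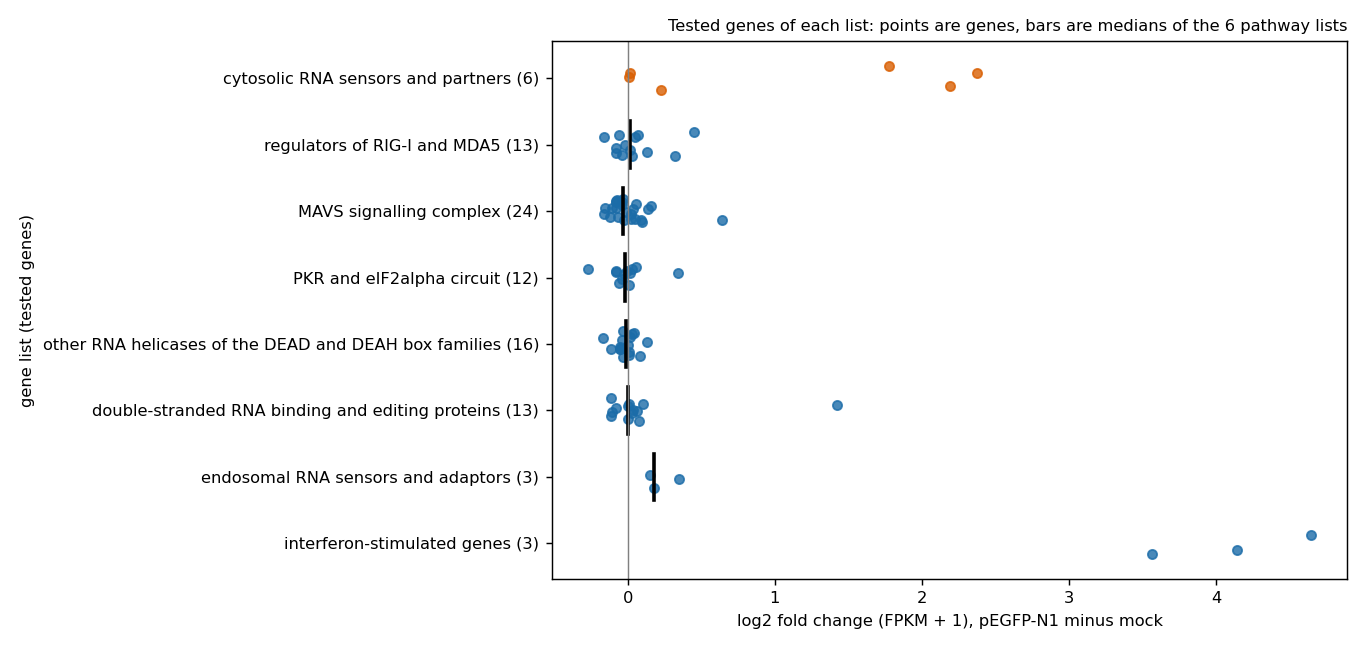
Log2 fold change of pEGFP-N1 minus mock on log2(FPKM + 1) for every tested gene of each list, with the number tested in brackets. Points are genes, spread vertically only for legibility, and black bars are the medians of the 6 pathway lists without Irf7, Zbp1 and Adarb2. The members (orange) split into 3 genes between 1.78 and 2.37 and 3 between 0.01 and 0.23. The highest, Ifih1, passed the filter only through the libraries in which it was high. The medians of the 6 pathway lists lie between -0.03 and 0.18. Points and medians are not on a like basis, since Irf7, Zbp1 and Adarb2 are left out of the medians.

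With BX795 against mock the lists also had 0 calls by limma in the fit of all 12 libraries, with 9 of the 78 genes at an unadjusted p under 0.05, against 13.8% of all tested genes. All 3 libraries were above mock in 4 and below mock in 2 of the 13 regulators of RIG-I and MDA5, in 5 and 4 of the 23 genes of the MAVS signalling complex, in 0 and 4 of the 12 of the PKR circuit, in 1 and 5 of the 16 helicases, in 2 and 1 of the 11 double-stranded RNA binding and editing proteins, and in 2 and 0 of the 3 endosomal genes, where 23.6% of all tested genes were above and 16.2% below. Medians ran from -0.09 in the helicases to 0.14 in the endosomal sensors, against 0.03 for all tested genes.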

How the data were processed

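The authors sequenced RNA on a BGISEQ-500, aligned reads to GRCm38.p5 with Bowtie2 2.2.5 and estimated expression with RSEM, and the deposited values are FPKM per gene, named by Entrez identifiers. Of these, 17450 had a symbol in RefSeq and 121 did not. Multi-mapped reads were shared out by RSEM, which can move values of genes with copies. Low values gave whole multiples in 35.2% of 420 cases (tolerance 0.1), so read counts were not recovered and depth is unknown.

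With R 4.3.3 and limma 3.58.1, log2(FPKM + 1) of the 10412 genes with at least 1 FPKM in at least 3 libraries was fitted with 4 group means, a mean trend and Benjamini-Hochberg adjustment. The study's own test needs counts, so limma was used. Single levels were compared by two-sided exact permutation tests (Python 3.11.15, scipy 1.17.1). Genes were placed with GENCODE M21.

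The members, lists and tests were chosen with earlier results of these data known. All 7 members were named, with the 3 genes of each other list furthest from no change in pEGFP-N1 minus mock and the 3 genes most alike to each widely varying member. Isg15, Ifit1 and Cxcl10 were added as reference levels. Alternatives were the pseudocount, filter, scaling, trend, samples fitted, a replicate block and each library left out, added for the named genes of the other lists after seeing the data. Listed genes absent from the table were not analysed here.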

Additional observations from a re-analysis of the deposited data

How the results depend on the processing

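In the 12-library fit and in every alternative, 0 members were called in any comparison, except in BX795 minus mock when only those 2 groups were fitted, where 2 were called (Ddx58, log2 fold change 0.44, and Dhx58, 0.26). The smaller spread of those 2 groups is built into that fit. Ifih1 in both agents minus BX795 (1.05) turned to -0.0431 without BX795 plus pEGFP-N1 replicate 1. The other values that changed sign were small ones of Mavs, Eif2ak2 and Adar. With TPM they were -0.00426 for Mavs in pEGFP-N1 minus mock, -0.000773 for Eif2ak2 in BX795 minus mock, 0.00137, 0.0187 and 0.0222 for Mavs, Eif2ak2 and Adar in both agents minus pEGFP-N1, 0.0265 for Eif2ak2 in both minus BX795, and -0.0195 for Eif2ak2 in the difference of the plasmid effects. With quantile normalization Eif2ak2 was -0.0361 in BX795 minus mock, 0.0354 in both minus BX795 and -0.0197 in the difference, and with the 75th percentile it was 0.0061 in both minus BX795. Leaving out each library in turn gave -0.0176 to 0.0493 for Mavs and -0.0318 to 0.103 for Eif2ak2 in pEGFP-N1 minus mock, -0.0761 to 0.0351 for Mavs, -0.097 to 0.0794 for Eif2ak2 and -0.169 to 0.0853 for Adar in both minus pEGFP-N1, -0.0431 to 1.63 for Ifih1 and -0.0702 to 0.0847 for Eif2ak2 in both minus BX795, and -0.0685 to 0.108 for Eif2ak2 and -0.0485 to 0.206 for Adar in the difference. The cause was not tested. The 18 genes named from the other lists kept their direction in pEGFP-N1 minus mock under each alternative in which they were tested, and none was called. The replicate numbers only name libraries: 6 of 18 correlations between same-numbered libraries exceeded 0.1 (range -0.389 to 0.635). With the replicate block, 0 members were called, and Ddx58 in pEGFP-N1 minus mock had a limma adjusted p of 0.538. With a mean FPKM of at least 5, Ifih1 was not tested. Unknown depth limits what the low values of Ddx60 and Ifih1 can show.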
